A study of Mus musculus with 2 samples.

Results

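Chromatin accessibility was described at 10 genes of the photoreceptor ribbon synapse, taken by name from a list: Ctbp2, Bsn, Pclo, Erc2, Rims2, Unc13b, Slc17a7, Cacna1f, Cacna2d4 and Cabp4. They are 10 of 21883 protein-coding genes in the RefSeq gene table of GRCm38.p6, and all 10 were found there. Each was counted over its locus, which is the gene body with 5 kb either side, and within 500 bp of each gene end. The measurement was ATAC-seq, in which Tn5 transposase cuts open DNA and leaves sequencing adapters, so that each retained read end marks 1 insertion. Neural retina of C57BL/6 mice, adult littermates, had been flash-frozen, and each genotype gave 1 library of 20000 nuclei, wild type or Gabra3 knockout. Gabra3 is the gene of a GABA-A receptor subunit, alpha 3. The sources used here do not give the knockout allele, the sex or the exact age. The series asks how DNA accessibility differs between these genotypes. Every ratio below sets 1 library against 1 other, so it has no replicate check and no p-value. Intervals are exact 95% intervals (Clopper-Pearson for ratios and shares, Poisson for levels), and they cover counting error only, for reads without molecular identifiers.

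A ribbon synapse is the output synapse of rods, cones and bipolar cells. A plate of protein, the ribbon, holds synaptic vesicles above the release site, and calcium channels anchored beneath it let the terminal release glutamate continuously in the dark. RIBEYE, the main protein of the ribbon, is made from the Ctbp2 gene through a start of its own, while another transcript of the same gene gives CtBP2, a transcriptional corepressor of many tissues. Bassoon (Bsn) and piccolo (Pclo) are giant scaffold proteins, and bassoon anchors the photoreceptor ribbon. ELKS2/CAST (Erc2) and RIM2 (Rims2) organise the active zone. Munc13-2 (Unc13b) primes vesicles, and VGLUT1 (Slc17a7) loads them with glutamate. Cav1.4 (Cacna1f) is the calcium channel of the photoreceptor terminal, alpha2delta-4 (Cacna2d4) is its accessory subunit, and CaBP4 (Cabp4) is the calcium-binding protein that tunes it.

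The libraries held 7635799 wild-type and 7646373 knockout insertions, of which 19.6% and 18.8% of the autosomal ones lay in 36822 open regions called on both libraries together. Each ratio is a log2 of the knockout over the wild-type count, scaled to insertions in these regions. Scaling to all autosomal insertions lowers each by 0.06. Gabra3 held 126 wild-type and 121 knockout insertions over its 224 kb and no open region (-0.06, -0.43 to 0.31, scaled to all autosomal insertions), which does not check the genotype label. All 10 rod marker genes had an open region, with a median level of 34.1 wild-type and 30.7 knockout insertions per kb of locus, and their promoters summed to 932 and 850 insertions (-0.07, -0.21 to 0.06). Promoters of 5 genes of liver, islet, heart, T cell and skin held 0 to 13 insertions summed over both libraries. Of the bipolar markers, whose cells also build ribbons, 5 of 8 promoters were measured, with 165 and 200 insertions (0.34, 0.03 to 0.64). Of the ganglion cell markers 5 of 7 were measured, with 131 and 193 (0.62, 0.29 to 0.95). For the other retinal cell types the intervals included 0. Cone markers, of cells that also build ribbons, had 136 and 150 (0.20, -0.14 to 0.55). Horizontal cell markers had 36 and 24 (-0.52, -1.33 to 0.26). Amacrine cell markers had 114 and 96 (-0.19, -0.60 to 0.22), and Muller glia markers 189 and 165 (-0.14, -0.45 to 0.17). In whole retina, fewer cells of a type and less open DNA per cell cannot be told apart, and the part of cell makeup in the ratios below was not tested.

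Ctbp2 was open at 2 places far apart, its outer gene end and a start deep inside the gene, and nearly closed at a start between them. The gene lies on the minus strand of chromosome 7 (132986998 to 133124009, 137 kb). The RefSeq promoter table, which covers 250 bases before to 50 after a start of transcription, holds 2 starts for it. The inner start, 108762 bp from the outer gene end, had 85 wild-type and 85 knockout insertions within 500 bp. The middle start, 42149 bp from that end, had 4 and 5. The outer gene end itself had 53 and 66. The inner start was thus at percentile 82.1 of 32851 RefSeq starts in the wild-type library and 82.6 in the knockout library, and the middle start at percentiles 37.9 and 42.7. The tables do not say which transcript begins at which start, so neither is assigned to RIBEYE or CtBP2 here.

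The promoter sequences of both starts are shown because they belong to 1 gene and differ in openness by the counts just given. Both are from RefSeq on GRCm38.p6, minus strand, the inner at chr7:133015198-133015497 and the middle at chr7:133081811-133082110. Capitals mark matches on either strand to TAATCC, the core bound by CRX and OTX homeodomain factors, and to GGGCGG, the GC box.
Ctbp2 inner start: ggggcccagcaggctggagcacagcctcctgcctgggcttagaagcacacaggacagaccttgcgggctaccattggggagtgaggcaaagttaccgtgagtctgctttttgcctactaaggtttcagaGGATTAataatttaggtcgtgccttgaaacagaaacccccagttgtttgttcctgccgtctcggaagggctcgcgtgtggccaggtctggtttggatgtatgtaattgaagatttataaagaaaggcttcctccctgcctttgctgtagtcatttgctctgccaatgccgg
Ctbp2 middle start: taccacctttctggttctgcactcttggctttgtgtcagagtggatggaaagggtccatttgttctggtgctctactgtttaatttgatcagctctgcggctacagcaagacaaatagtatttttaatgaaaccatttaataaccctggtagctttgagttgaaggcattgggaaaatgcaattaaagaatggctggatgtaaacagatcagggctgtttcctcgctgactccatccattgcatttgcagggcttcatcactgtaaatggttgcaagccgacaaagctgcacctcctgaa
The inner start carries GGATTA, the reverse complement of TAATCC, with its first base at position -121, counted from the start of transcription at +1 with no position 0. Of all 32851 promoter sequences of this length 7.06% hold a TAATCC match on either strand, and among the 8 starts of member genes in the table this was 1 of 8. The inner sequence has 52.0% GC and 8 CpG pairs, and the middle one 43.7% GC and 3. A match describes letters in this window and is not evidence of binding.

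Insertions stayed dense past the inner start, in the direction of transcription. The pooled region there (133015301 to 133015950, 650 bp) lay on the upstream side of the start and held 69 wild-type and 85 knockout insertions (0.36, -0.12 to 0.84). The 5 kb past this start held 183 and 170 insertions, which is 36.6 and 34.0 per kb (-0.05, -0.36 to 0.26). The 5 kb past the outer gene end held 12.8 and 16.6 per kb, and the 5 kb past the middle start 2.80 and 4.20 per kb. Of the 12 open regions of Ctbp2, 10 lay inside the gene away from these points, among them 133013051 to 133013300 with 23 and 19 insertions. At the outer end the region (133123901 to 133124600, 48 and 62 insertions) lies within 500 bp of an end of the predicted gene Gm35364, which overlaps Ctbp2 by 455 bp, so its insertions cannot be given to either gene alone. The whole Ctbp2 locus had 1232 and 1238 insertions (0.07, -0.05 to 0.18), nearly the same number in both libraries.

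**Figure D1:**
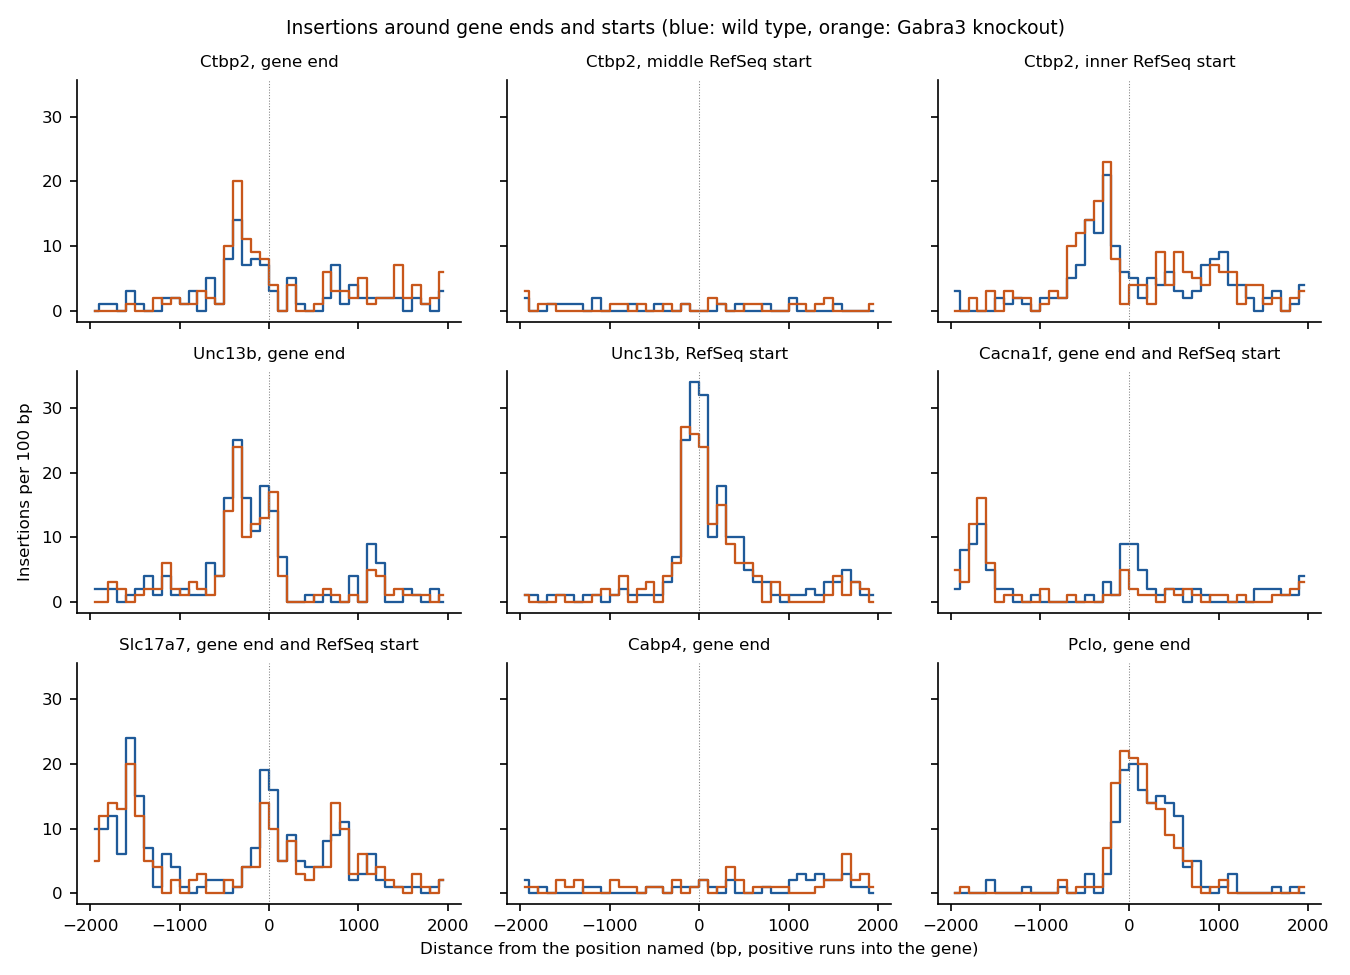
Insertions per 100 bp (y axis) against distance in bp (x axis) from gene ends and RefSeq starts, in the wild-type library (blue) and the Gabra3 knockout library (orange). The inner Ctbp2 start and both Unc13b points stand out of their surroundings, the middle Ctbp2 start and the Cabp4 gene end do not, and Cacna1f has 33 wild-type against 13 knockout insertions within 500 bp.

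Among the giant scaffolds, Pclo had a strong promoter and a sparse body, and Bsn was open at its promoter and next to its far end. Pclo (chromosome 5, 14514906 to 14863465, plus strand, 349 kb) had 115 wild-type and 125 knockout insertions within 500 bp of its start end (0.18, -0.20 to 0.56) and 1 and 2 at its other end. The promoter region was 1100 bp wide with 132 and 136 insertions. A region 209 kb into the gene (14723401 to 14724050) held 65 and 65, equal counts in both libraries, and another (14834101 to 14834700) held 33 and 22 (-0.52, -1.37 to 0.30). Bsn (chromosome 9, 108096022 to 108190419, minus strand) had 70 and 57 insertions at its start end (-0.23, -0.77 to 0.29). Its other end had 31 and 27, next to a region of 115 and 119 insertions (108094151 to 108095000) that covers the start of Apeh, an acylpeptide hydrolase gene 1.53 kb away. A small region at that end (108095651 to 108095900) held 16 and 13. The 94.4 kb of the gene held no open region away from the gene ends.

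The Pclo promoter is printed as the one with most GC boxes of the member promoters together with Unc13b, 4 each (RefSeq, chr5:14514668-14514967, plus strand, capitals as above).
Pclo: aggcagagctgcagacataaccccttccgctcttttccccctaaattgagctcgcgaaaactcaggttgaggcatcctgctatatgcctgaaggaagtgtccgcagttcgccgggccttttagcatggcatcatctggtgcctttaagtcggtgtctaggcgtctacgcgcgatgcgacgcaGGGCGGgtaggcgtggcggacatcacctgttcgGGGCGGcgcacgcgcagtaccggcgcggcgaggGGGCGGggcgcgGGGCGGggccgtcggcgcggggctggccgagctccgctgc
It has 66.0% GC and 35 CpG pairs, at percentile 93.4 of all promoters for CpG. The Bsn promoter, at 72.3% GC and 38 CpG pairs, has no GGGCGG match. GGGCGG was found in 5 of 8 member starts and in 35.7% of all promoters. The E-box CANNTG was found in 8 of 8 against 72.3%, TATAAA in 1 of 8 against 13.6%, and TGCTGA, part of the site of NRL and MAF factors, in 0 of 8 against 19.5%, each on both strands and with overlaps between motifs allowed. Cabp4, Cacna2d4 and Rims2 have no entry in the promoter table.

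The active zone organisers Erc2 and Rims2 are the longest members, and in both the most open region lay at the end taken as the promoter. Erc2 (chromosome 14, 27622275 to 28478537, plus strand, 856 kb) had 113 wild-type and 112 knockout insertions at its start end (0.05, -0.34 to 0.44). Its promoter region held 115 and 122, and the next strongest, 182 kb into the gene (27803851 to 27804350), held 30 and 30. Just past the promoter 27623351 to 27623700 held 25 and 19. Only 5.37% of the wild-type and 5.33% of the knockout insertions of the Erc2 locus lay in open regions, the lowest share among the members. Rims2 (chromosome 15, 39198286 to 39684372, 486 kb) had 70 and 66 insertions at the gene end of lower coordinate (-0.03, -0.53 to 0.48) and 4 and 6 at the other. No strand was given for Rims2, so the former was taken as its promoter end because it held more insertions. The Rims2 region there (39198001 to 39199350) was the widest of the members at 1350 bp and held 134 and 135 insertions. Inside Rims2, 39434051 to 39434700 held 76 and 59 insertions (-0.30, -0.82 to 0.20) and 39527551 to 39528050 held 37 and 28 (-0.34, -1.11 to 0.40). Of the 14 regions of Rims2, 11 had a ratio below 0 (78.6%), against 52.1% of all 36822 regions. Some of the 14 are small, down to 7 and 2 insertions. Together the 14 held 402 and 347 insertions (-0.15, -0.36 to 0.06). With all autosomal insertions as the scale, which lowers every ratio, that interval left out 0 (-0.21, -0.43 to -0.0039). The share of all genes with such an interval is not given here.

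**Figure D2:**
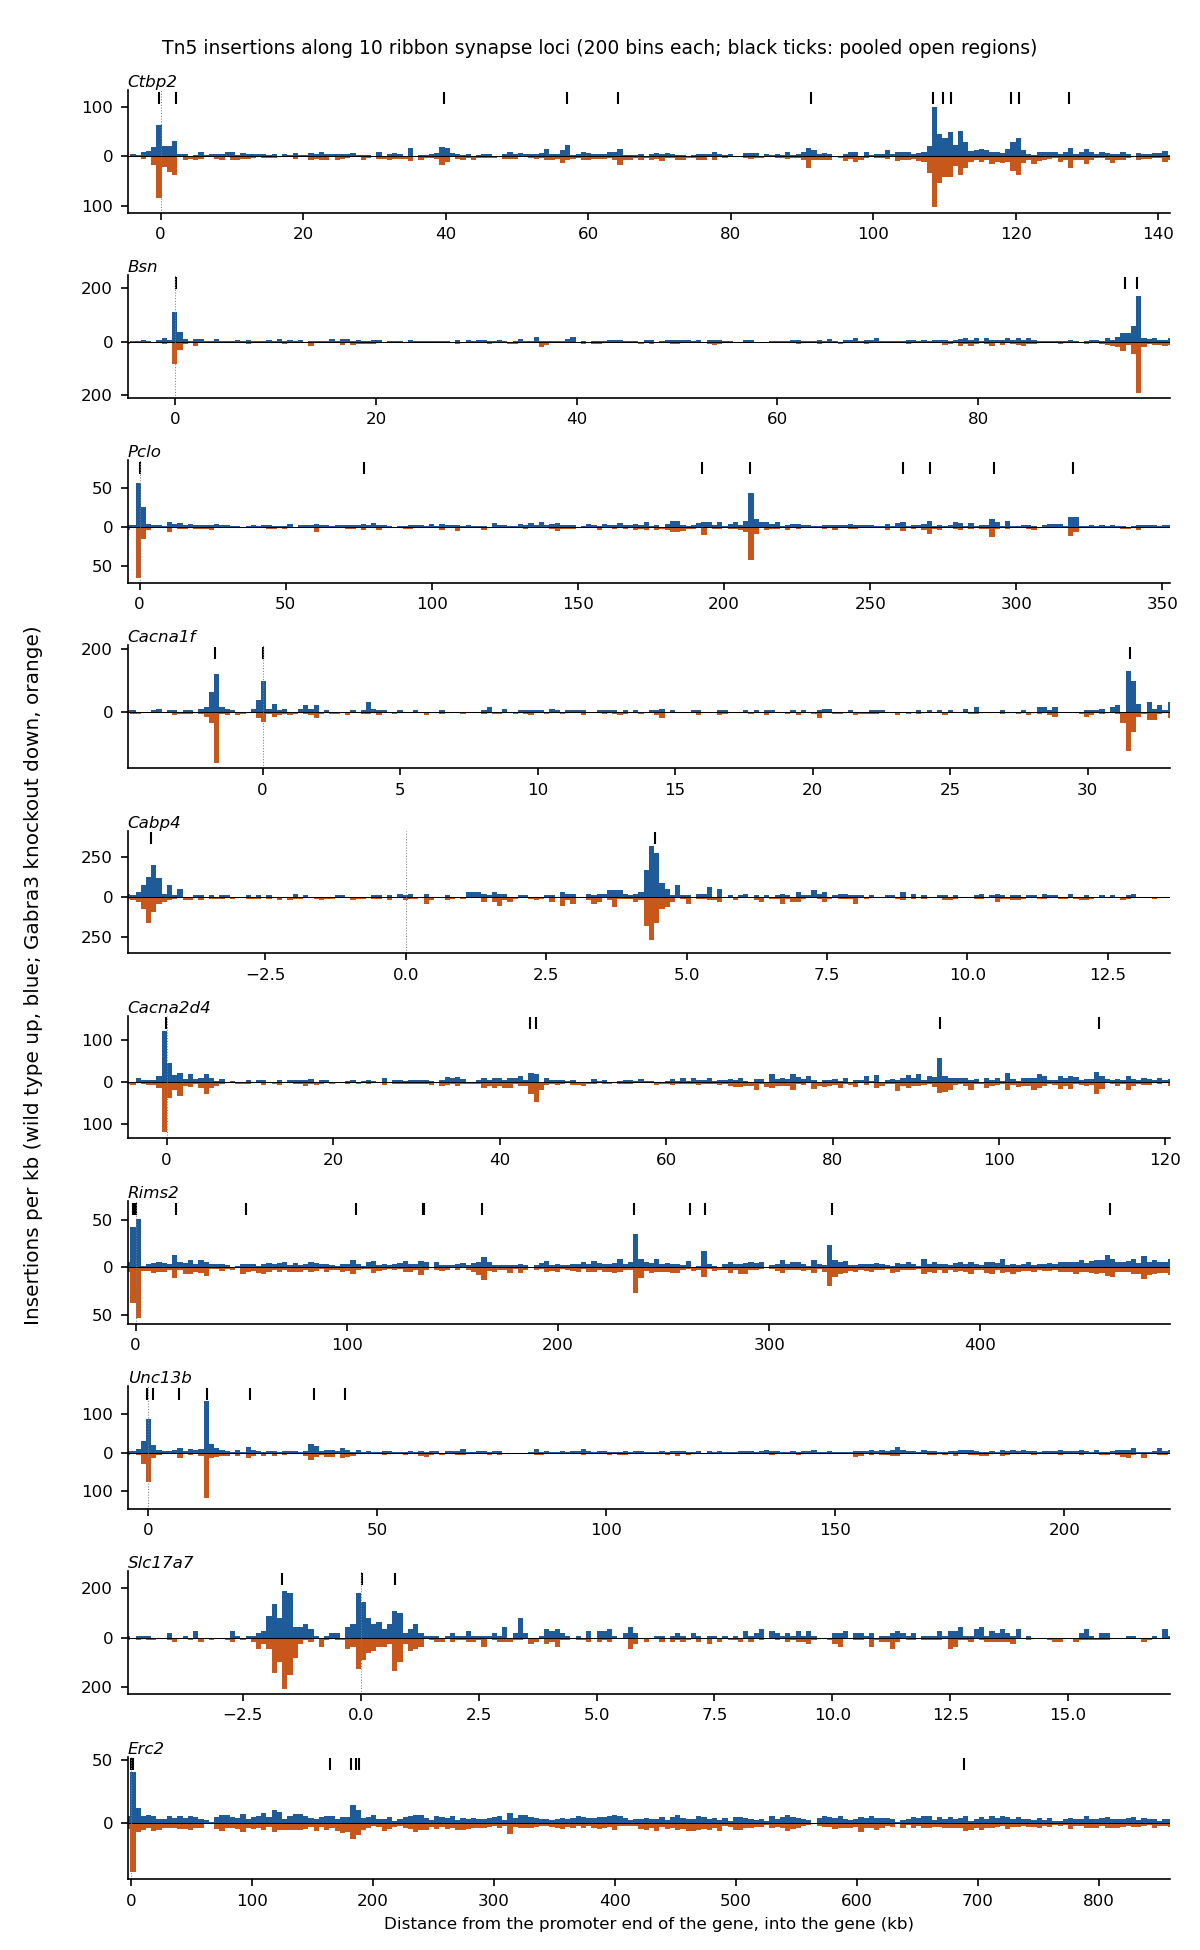
Insertions per kb (y axis, each panel on its own scale) in 200 bins along each of the 10 loci against distance in kb from the promoter end, with wild type upward in blue, Gabra3 knockout downward in orange and pooled open regions as black ticks. The profiles mirror each other, and the strongest signal of Ctbp2 lies 108762 bp inside the gene.

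Of the release genes, Unc13b was open at its gene end and at a RefSeq start further in, and Slc17a7 had its strongest region upstream of its start. Unc13b (chromosome 4, 43046193 to 43264873, plus strand) had 108 wild-type and 94 knockout insertions at its gene end (-0.14, -0.56 to 0.27). That end overlaps the end of Fam214b by 28 bp, so the region there (43045551 to 43046450, 114 and 99 insertions) is shared with that gene. The RefSeq start 12.8 kb further in had 150 and 129 insertions (-0.16, -0.51 to 0.19), percentiles 93.8 and 91.2 of all starts. Its region (43058601 to 43059600, 156 and 137 insertions) held the most insertions of all 64 member regions, and its promoter is printed for that reason (RefSeq, chr4:43058703-43059002, plus strand).
Unc13b: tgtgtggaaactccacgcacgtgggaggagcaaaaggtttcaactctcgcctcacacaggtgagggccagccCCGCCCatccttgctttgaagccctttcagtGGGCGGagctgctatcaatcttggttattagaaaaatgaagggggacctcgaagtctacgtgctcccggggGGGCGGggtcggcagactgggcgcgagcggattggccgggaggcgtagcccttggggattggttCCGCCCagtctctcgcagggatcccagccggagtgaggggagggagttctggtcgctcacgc
It has 62.0% GC and 20 CpG pairs. The third region of Unc13b (43082151 to 43082550) held 23 and 18 insertions. Slc17a7 (chromosome 7, 45163921 to 45176139, plus strand, 12.2 kb) had 70 and 53 insertions at its start (-0.34, -0.89 to 0.19) and 17 and 14 at its other end. A region centred 1.67 kb upstream (45161901 to 45162600) held 84 and 82 insertions, more than the 56 and 41 of the promoter region, and it lay over 500 bp from the end of any other protein-coding gene. Another region just inside the gene (45164451 to 45164850) held 32 and 32. The sequence at the Slc17a7 start is shown beside those of more CpG-rich members (RefSeq, chr7:45163671-45163970, plus strand).
Slc17a7: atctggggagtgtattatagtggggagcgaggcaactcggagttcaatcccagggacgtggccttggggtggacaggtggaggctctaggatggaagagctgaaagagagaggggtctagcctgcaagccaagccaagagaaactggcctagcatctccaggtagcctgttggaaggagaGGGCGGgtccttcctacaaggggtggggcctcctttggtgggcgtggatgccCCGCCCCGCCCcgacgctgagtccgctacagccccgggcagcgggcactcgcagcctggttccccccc
It has 13 CpG pairs and 3 GC boxes, 2 of which overlap in 1 run of capitals.

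The calcium channel genes included the 1 member promoter that was over 2-fold apart between the libraries. Cacna1f (chromosome X, 7607103 to 7635196, plus strand) had 33 wild-type and 13 knockout insertions within 500 bp of its start, a log2 ratio of -1.25 (-2.33 to -0.32). These are few insertions, under the 100 summed that were required for a call. At a minimum of 20 insertions, 1 of 10 member promoters was 2-fold lower in the knockout library, against 0.561% of 11585 promoters of all genes, and 0 were 2-fold higher, against 0.889%. The interval of 1 of 10 lay wholly below 0 and of 0 wholly above, against 1.29% and 1.95% of all. Its own region (7606951 to 7607300) held 24 and 9 insertions (-1.31, -2.65 to -0.20). With a window of 1000 bp there were 38 and 21 insertions, and the interval of that ratio included 0 (-0.78, -1.64 to 0.01). With all repeated reads kept they were 38 and 13 (-1.40, -2.47 to -0.50). The regions either side did not share this ratio. That at the start of Ccdc22 (7605101 to 7605650) had 36 and 42 insertions, and that at the start of Syp, the synaptophysin gene of synaptic vesicles (7638401 to 7638900), had 45 and 44. The whole X chromosome held 2.20% of wild-type and 2.17% of knockout insertions.

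The Cacna1f promoter is printed because it had this ratio and the lowest GC content, together with the middle Ctbp2 start, of the member promoters (RefSeq, chrX:7606853-7607152, plus strand).
Cacna1f: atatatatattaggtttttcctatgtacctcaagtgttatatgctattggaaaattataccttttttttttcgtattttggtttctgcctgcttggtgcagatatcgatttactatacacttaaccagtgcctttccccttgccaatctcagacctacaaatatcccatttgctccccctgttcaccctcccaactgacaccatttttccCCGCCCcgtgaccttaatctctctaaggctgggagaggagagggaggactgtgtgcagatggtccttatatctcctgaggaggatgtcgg
It has 43.7% GC and 5 CpG pairs, 1 GC box and no TAATCC match. The 5 kb flanks held 58.9% of the wild-type and 59.7% of the knockout insertions of the Cacna1f locus, the highest share among the members. The gene body had 3.95 and 3.31 insertions per kb, and the locus with its flanks 7.09 and 6.06.

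The other channel genes were open at different kinds of place. Cacna2d4 (chromosome 6, 119236524 to 119352407) had 102 wild-type and 93 knockout insertions at the gene end of lower coordinate (-0.07, -0.50 to 0.35) and 11 and 13 at the other. Its strongest region (119236101 to 119236850) lay at the former and held 94 and 87. Inside Cacna2d4, 2 regions with at least 40 insertions differed between the libraries in opposite directions. A region 44.4 kb in (119280751 to 119281150) held 13 and 27 insertions (1.09, 0.11 to 2.19). A region 92.9 kb in, which also lies inside Lrtm2 (119329151 to 119329650), held 34 and 15 (-1.10, -2.10 to -0.21). Cabp4 (chromosome 19, 4135423 to 4144080) had few insertions at its gene ends, with 9 and 13 at one and 8 and 5 at the other. At the former end Cabp4 stood at percentiles 45.4 and 50.8 of all genes, whose median was 12 in each library. Its strongest region (4139351 to 4139950) lay inside the gene, at an end of Gpr152, which overlaps Cabp4 by 4282 bp, and held 89 and 76 insertions (-0.17, -0.63 to 0.29). Windows at the gene ends therefore did not measure the open part of this locus, and the region cannot be given to Cabp4 or Gpr152 alone. The other Cabp4 region, with 53 and 40 insertions, lay in the flank at an end of Coro1b.

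The neighbouring genes not named so far had few insertions at the ends that lie in the 5 kb flanks. No open region of a member lay within 500 bp of those ends. Such ends held 8 wild-type and 6 knockout insertions at Zranb1 beside Ctbp2, 8 and 7 at Adipor2 beside Cacna2d4, 10 and 3 at Atp8b5 beside Unc13b, and 7 and 10 at Tmem134 beside Cabp4. Beside Slc17a7 they held 6 and 6 at Pih1d1, 11 and 5 at Pth2, and 20 and 16 at the near end and 11 and 7 at the far end of Gfy.

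Per kb of locus the members spanned a wide range, with the short genes highest. Slc17a7 had 20.03 wild-type insertions per kb (18.2 to 22.0) and 17.6 in the knockout library (15.9 to 19.5). Cabp4 had 17.6 (15.7 to 19.6) and 16.7 (14.9 to 18.6), and the intervals of Slc17a7 and Cabp4 overlapped in each library. Slc17a7 stood at percentile 97.0 of all loci in the wild-type library and 95.8 in the knockout library. Ctbp2 followed with 8.38 and 8.42, then Cacna2d4 with 8.28 and 8.13, whose intervals also overlapped. Cacna1f had 7.09 and 6.06 and Bsn 7.05 and 7.54, and these 2 changed places between the libraries, with intervals that overlapped in the wild-type library and not in the knockout library. Unc13b had 5.76 and 5.71, Rims2 5.18 and 5.01, Erc2 4.36 and 4.31, and Pclo 3.23 and 3.08, and in the order Bsn, Unc13b, Rims2, Erc2, Pclo the intervals of neighbours did not overlap in either library. The median of all loci was 4.87 and 4.92, and the genome mean 2.80 and 2.81. Outside open regions Slc17a7 still had 13.2 and 11.5 insertions per kb and Cabp4 10.6 and 11.1, against medians of 3.46 and 3.53 over all genes, while Pclo had 2.52 and 2.34.

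**Figure D3:**
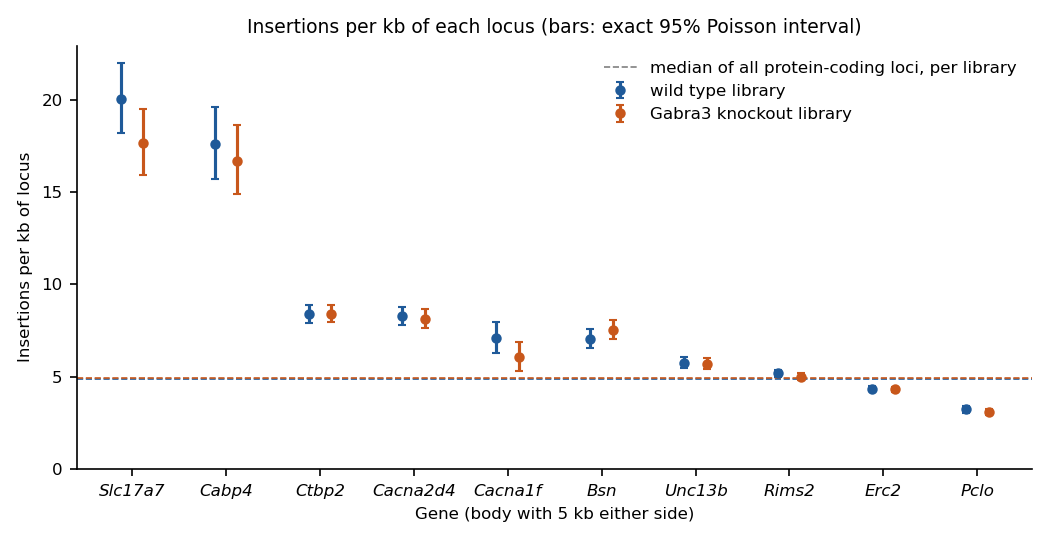
Insertions per kb of locus (y axis) for each gene with its 5 kb flanks (x axis), in the wild-type library (blue) and the Gabra3 knockout library (orange), with exact 95% Poisson intervals as bars and the median of all protein-coding loci dashed. Slc17a7 and Cabp4 lie above 16 and the other members below 9.

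Between the libraries the members as a set differed little, and 0 of them passed the 2-fold rule at 100 insertions. Of the 8 member promoters with at least 100 insertions 0 were 2-fold higher and 0 were 2-fold lower, as were 0% of 7420 such promoters of all genes in each direction. At 1.5-fold it was again 0 and 0 of 8, against 0.539% higher and 0.229% lower of all. Summed over the 10 promoters there were 743 wild-type and 692 knockout insertions (-0.04, -0.19 to 0.11). The median ratio was -0.05, with 6 of 10 below 0, against a median of 0.02 and 46.4% below 0 over all promoters with at least 20 insertions. Over whole loci the sums were 12874 and 12614 (0.03, -0.01 to 0.07) and the median was 0.02, against 0.06 over all loci. The interval of the sum lay wholly above 0 with the gene bodies alone, with flanks of 20 kb and with all reads kept, and the sum was below 0 (-0.032) with all autosomal insertions as the scale. Of the 10 loci, 0 were 1.5-fold higher and 0 were 1.5-fold lower, against 0.365% and 0.0658% of 16720 loci. At 2-fold it was 0 and 0, against 0.00598% and 0%. The interval of Bsn alone left out 0 (736 and 787 insertions, 0.16, 0.01 to 0.30), and 7.44% of all loci had an interval wholly above 0 and 1.33% one wholly below, as did 0 of 10 members. With all autosomal insertions as the scale the Bsn interval included 0 (0.09, -0.05 to 0.24).

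**Figure D4:**
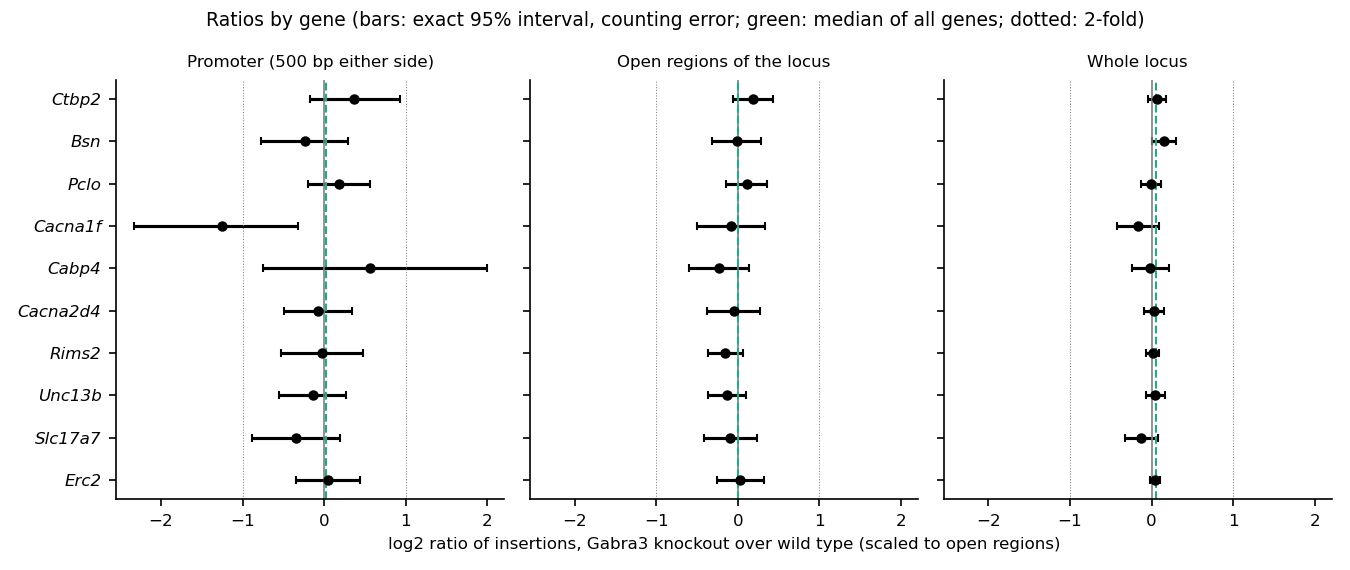
Log2 ratio of knockout over wild-type insertions (x axis) by gene (y axis) at promoters, in the open regions and over whole loci, with exact 95% intervals as bars, the median of all genes as a green dashed line and 2-fold dotted. The interval of Cacna1f at its promoter lies wholly below 0, and whole-locus values stay between -0.17 and 0.16.

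The 64 open regions of the members differed little in sum between the libraries. They summed to 2244 wild-type and 2103 knockout insertions (-0.03, -0.12 to 0.05). With all autosomal insertions as the scale the interval lay wholly below 0 (-0.10, -0.18 to -0.01). That scale moves every ratio by -0.06, so all autosomal open regions together stand at -0.06 on it, inside this interval. Of the 64, 9 lay at the promoter end of their gene, 2 at a RefSeq start inside, 1 at the other end, 45 elsewhere inside the gene and 7 in the flanks. Of the 14 regions with at least 100 insertions 0 were 1.5-fold higher and 0 lower, against 0.531% and 0.373% of 8849 such regions. Of the 30 with at least 40 insertions 1 was 2-fold higher and 1 was 2-fold lower, both in Cacna2d4, against 0.144% and 0.229% of 15260. The same 2 regions were the ones past 1.5-fold (2.16% and 2.73% of all) and the ones whose interval left out 0 (1.83% and 1.38%). With no minimum 4 of 64 were 2-fold higher and 5 lower, against 2.9% and 5.62% of all regions, and at 1.5-fold 8 and 10, against 9.77% and 13.9%. The median region held 35.5 insertions in both libraries together, against 30 over all regions. Of the 64, 34 had a ratio below 0 (53.1%), against 52.1% of all 36822 regions.

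**Figure D5:**
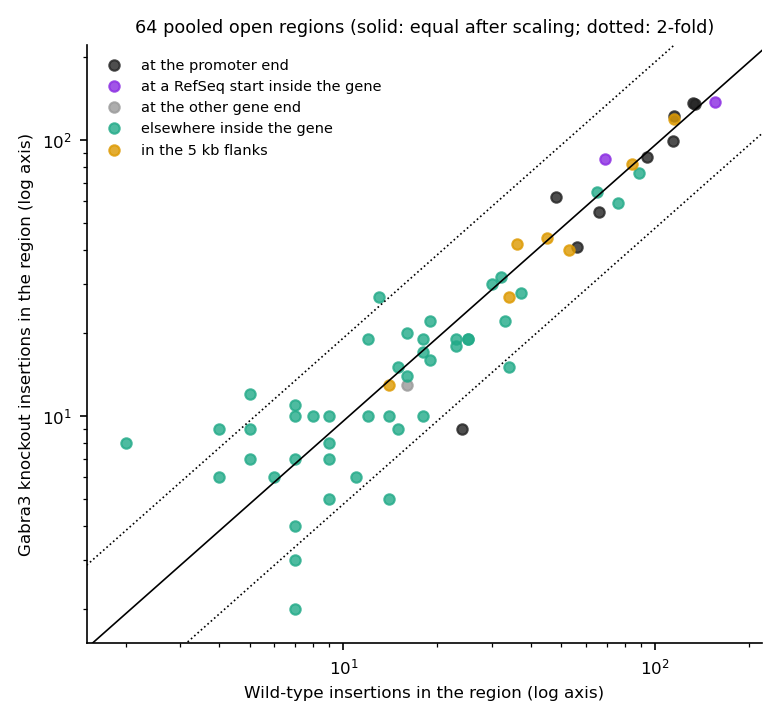
Knockout insertions (y axis, log) against wild-type insertions (x axis, log) in each of the 64 open regions of the members, coloured by place, with a solid line for equal counts after scaling and dotted lines for 2-fold. The regions with at least 100 insertions summed lie close to the solid line, and 9 of the 64 lie on or outside the dotted lines.

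Relatives in the same protein families are listed for 8 of the 10 members, and 5 of the 8 (Slc17a7, Cacna2d4, Erc2, Rims2 and Unc13b) had more insertions at their gene end than every listed relative in both libraries. Slc17a7 had 70 wild-type and 53 knockout insertions, against 2 and 6 at Slc17a6 and 3 and 4 at Slc17a8, the VGLUT2 and VGLUT3 genes. Cacna2d4 had 102 and 93, against 61 and 65 at Cacna2d2, 13 and 20 at Cacna2d1 and 6 and 4 at Cacna2d3. Cacna1f, with 33 and 13, exceeded Cacna1d (1 and 1), Cacna1c (4 and 4) and Cacna1e (4 and 6) in both libraries. In the knockout library Cacna1f did not exceed Cacna1s (10 and 15), Cacna1b (15 and 18) or Cacna1a (16 and 13). Erc2 had 113 and 112 against 59 and 61 at Erc1, and Rims2 had 70 and 66 against 46 and 32 at Rims1 and 61 and 63 at Rims3. The Rims3 counts lie within the Poisson intervals of Rims2 (54.6 to 88.4 and 51.0 to 84.0). Unc13b, at a gene end that it shares with Fam214b, had 108 and 94 against 72 and 59 at Unc13a and 2 and 4 at Unc13c. Ctbp2 went the other way, since its gene end had 53 and 66 against 182 and 193 at Ctbp1, the gene of the related corepressor. Cabp4 had 9 and 13 at its gene end, against 23 and 11 at Cabp1 and 14 and 6 at Cabp7. Cabp4 was thus below both in the wild-type library and above both in the knockout library. Cabp2 (3 and 4) and Cabp5 (2 and 0) were below Cabp4 in both libraries. Windows sit at gene ends, so a relative that starts elsewhere is not measured by them. Of the 23 relatives 13 promoters had at least 20 insertions, with 586 and 572 in all (0.02, -0.14 to 0.19). Of the 13, 2 were 1.5-fold higher (Cacna2d1 and Cacna1s) and 2 lower (Cabp1 and Cabp7), named here after their values were seen and each with under 40 insertions summed, against 3.99% and 3.21% of all such promoters.

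Other genes of the photoreceptor terminal, 28 in number, were also close between the libraries. Of these 21 promoters were measured, with 2206 wild-type and 2157 knockout insertions (0.03, -0.06 to 0.11), a median ratio of -0.02 and 12 of 21 below 0. The strongest were Atp2b1, a calcium pump gene, with 248 and 264 insertions, Syt1, the synaptotagmin gene, with 175 and 167, and Rab3a, a vesicle GTPase gene, with 167 and 147. Among those with at least 100 insertions the ratios ran from -0.28 (-0.74 to 0.17) at Nsf, the SNARE-recycling ATPase gene, to 0.25 (-0.23 to 0.74) at Dnm1, the dynamin gene of vesicle retrieval. Elfn1, a synaptic adhesion gene, was the 1 promoter of the 21 that was 1.5-fold higher, with 35 and 54 insertions (0.68, 0.04 to 1.34), named after its value was seen, and 0 were 1.5-fold lower, against the same 3.99% and 3.21%.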

How the data were processed

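ATAC-seq reads of 2 retina libraries were analysed. Per the submitters' processing notes, Trimmomatic 0.33, BWA and bedtools 2.23.0 were used with GRCm38 (mm10). The sources used here do not give the role of each tool, the version of BWA or how duplicates were handled. Each line of a deposited file is 1 aligned read, and the authors left its mapping quality, not normalized, in the score column.

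Reads with a score of at least 10 (93.6% of wild-type and 93.4% of knockout reads) were reduced to 5-prime ends, shifted by 4 bp (plus strand) or -5 bp (minus strand), and counted once per position and strand. Open regions were called on both libraries thinned to equal depth and summed, in windows of 200 bp placed every 50 bp. A window was kept at a Poisson p under 1e-05, with the genome mean or the local 10 kb mean as background, whichever was higher, and windows within 150 bp were merged. A region belongs to a gene when its centre lies in the locus. The promoter end is the end given by the strand in the RefSeq promoter table (7 of 10 members), otherwise the end with more insertions. Ratios used a pseudocount of 0.5. A promoter was measured at 20 insertions summed and called at 2-fold with 100. Code was tested on simulated data (Python 3.11.15, NumPy 2.4.6, SciPy 1.17.1).

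The members and lists were chosen with earlier results of these data known. All members were named, with genes overlapping their loci, in each other list the 3 strongest promoters and the highest and lowest ratio at 100 insertions, and in each member the 3 strongest regions and any with 40 insertions and a 1.5-fold ratio.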

Additional observations from a re-analysis of the deposited data

How the results depend on the processing

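Other settings changed the scale (all autosomal insertions, trimmed mean of M values), the score minimum (30), repeated reads (all kept), the pseudocount (1), the shift (none), windows (250 and 1000 bp, both gene ends), minimum counts, flanks (0 and 20 kb), ends of other genes and the region call (p under 1e-07). RefSeq starts, regions at other genes left out and the sum without Cacna1f were added after seeing the data. Under these settings 32 of 37 summary values and 293 of 294 values of single members stayed close to the main value (within its interval, or for a count within 1.5 times). For single members the minimum counts cannot change the ratio, and the pseudocount and the shift changed it little. Intervals are also wide at low counts. The Cabp4 promoter, at 0.57 (-0.75 to 2.00), counted as close at both -0.23 and 1.03. These counts are therefore no measure of robustness. The exception among members was the open regions of Cacna1f without those at other genes (-1.31). With all autosomal insertions the ratio of the summed loci went from 0.030 to -0.032, while its interval lay wholly above 0 with gene bodies alone (0.040, 0.0026 to 0.078), flanks of 20 kb (0.036, 0.0036 to 0.069) and all reads kept (0.062, 0.027 to 0.096). With all reads kept the locus intervals of Cacna1f (-0.26, -0.51 to -0.02) and Erc2 (0.08, 0.02 to 0.15) also left out 0. Those intervals take repeated reads at a position as separate counts. The share of all loci with such an interval under this setting is not given here. The Bsn locus interval included 0 under 4 of 9 settings. Summed promoters ranged from -0.10 to 0.01, the latter with all reads kept. With the stricter region call the share of member insertions in open regions was 15.4% in the wild-type and 14.8% in the knockout library, in place of 17.4% and 16.7%. Without flanks 3 members (wild type) and 4 (knockout) kept their rank by insertions per kb. Cabp4 then came before Slc17a7, and Cacna1f after Erc2. No paired analysis was possible because each genotype had 1 library, and for the same reason no replicate could be left out. Depth limits most the regions with few insertions.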

Other observations

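The densest 5 kb of a locus lay over the promoter end in 6 of the 10 members and elsewhere in the other 4. Among the 6 are Rims2 and Cacna2d4, whose promoter end was itself chosen as the end with more insertions. Cacna1f is also among the 6, with 98 and 77 insertions in that stretch. The stretch also covers the region at the start of Ccdc22 (36 and 42), which held more than the Cacna1f promoter region (24 and 9). In Pclo the densest 5 kb held 30.6 insertions per kb in each library, 9.47 times the wild-type and 9.93 times the knockout level of the whole locus. In Rims2 it held 232 wild-type and 225 knockout insertions, and in Erc2 185 and 177. In Ctbp2 it was the stretch at the inner start (133010998 to 133015997), with 49.4 and 49.0 per kb, the highest of all members in both libraries. In Unc13b it covered the RefSeq start inside the gene, with 205 and 185 insertions, and in Bsn at the far end beside Apeh, with 186 and 192. In Cabp4, with 33.6 and 30.2 per kb, it covered the region at the end of Gpr152.

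Regions were also called in each library alone at equal depth. Of the 64 member regions 35 (54.7%) were found in both, against 53.8% of all 36822 regions. The wild-type library alone gave 7 (10.9%), against 16.4% of all regions, and the knockout library alone 4 (6.25%), against 9.41%. In neither were 18 (28.1%), against 20.4%. Over the whole genome 26591 regions were called in the wild-type library and 23846 in the knockout library. In Slc17a7 and Cabp4 every region (3 of 3 and 2 of 2) was found in both libraries. In Cacna2d4 2 of 5 were, and in Erc2 and Unc13b 3 of 7 each.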
